A study of Mus musculus with 4 samples.

Results

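The keratins Krt5, Krt7, Krt8, Krt14, Krt18 and Krt19, with the mesenchymal filament gene Vim (vimentin) and the progenitor filament gene Nes (nestin), were examined as a gauge of epithelial character in cultures of mouse embryonic fibroblasts (MEFs). Their probes were chosen by gene name alone, as all spots that are not controls and carry 1 of the 8 names. This gave 8 of 27827 gene names and 11 of 41174 probes, with 2 probes each for Krt7, Krt8 and Vim and 1 for each of the other genes. RNA of 4 MEF lines was compared, 2 of genotype Ip6k1+/+ and 2 of genotype Ip6k1-/-, which lack the inositol hexakisphosphate kinase gene Ip6k1. All 4 lines came from E14 embryos of a single mating of heterozygous mice, were immortalised with SV40 large T antigen, and were thawed, passaged 2 times and harvested while growing exponentially. Each line is the culture of 1 embryo, so that a difference between lines and a difference between embryos cannot be told apart, and SV40 large T antigen is present in both genotypes.

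Intermediate filaments are ropes of coiled-coil proteins that brace the cytoplasm. Keratins form them only as pairs of a type I with a type II chain. Krt8 and Krt18 are the basic pair of simple epithelia, Krt7 and Krt19 are added in ducts, mesothelium and many other simple epithelia, and Krt5 with Krt14 marks the basal layer of stratified epithelia. Fibroblasts build their filaments chiefly from vimentin, and cultured MEFs commonly contain nestin as well, while keratins of simple epithelia can be found at low levels in cultured mesenchymal cells.

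The probes are 60 bases long and were designed by the array's maker, and their positions are those the files give on mm9. Krt7 is shown because its probes had the largest differences between genotypes among the 8 genes, and they lie in separate parts of the gene and share no run over 6 bases. The first, A_51_P312348, lies at chr15:101258172-101258231 on the plus strand, and 30 of its bases are given with the letters AATAAA, the usual polyadenylation signal, in capitals. These letters are in 4.78% of all probes. The second, A_52_P410685, lies upstream at chr15:101253718-101253777 and is given whole.
Krt7 A_51_P312348: gctgttggctttAATAAAgggcctctctga
Krt7 A_52_P410685: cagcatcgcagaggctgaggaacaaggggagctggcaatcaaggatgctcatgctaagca

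Krt8 and Krt18, the partner chains, lie close to each other on chromosome 15, with the Krt8 probes at chr15:101827346-101827405 and chr15:101827214-101827273 on the minus strand and the Krt18 probe at chr15:101862341-101862400 on the plus strand. The first Krt8 probe and the Krt18 probe share 11 bases, in capitals below, the longest run that any pair of the 11 probes shared. The other Krt8 probe shares no more than 5 bases with Krt18. For each, 30 of the 60 bases are shown.
Krt8 A_51_P242399: TGGTGTCCGAGtcttctgatgtcgtgtcca
Krt8 A_51_P242400: ccgaggatcagccctaatcctctggccaac
Krt18 A_51_P324814: ggatggcagagTGGTGTCCGAGactaatga

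Of the keratins chosen here that were well above background in all 4 lines, only Krt19 had the higher mean in Ip6k1-/- MEFs, and it is shown for this. Its probe lies at chr11:100002392-100002451 on the minus strand. The Vim probes are shown because they stood at opposite ends of the scale. A_51_P392687 lies at chr2:13504232-13504291 and A_52_P287532, named for the cDNA clone AK033175, at chr2:13498766-13498825, both on the plus strand. The latter begins with GTAAGT, in capitals, the letters with which many introns begin and with which 5 of the 41174 probes, 0.0121%, begin.
Krt19 A_51_P356642: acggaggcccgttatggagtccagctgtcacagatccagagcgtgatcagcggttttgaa
Vim A_51_P392687: gcagtttttcaggagcgcaagatagatttg
Vim A_52_P287532: GTAAGTgttttgatctgtcatcctaaaaca

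Levels are log2 of the background-corrected signal minus the 75th percentile of the array, so that 0 marks that percentile. A probe is called well above background by the flag of the scanning software, and the dimmest probes that carried this flag lay between -5.20 and -4.68. The share of probes with the flag ran from 52.0% to 55.5% over the 4 arrays. Ip6k1 itself was checked first. Its probe A_51_P213766 read 0.35 and 0.39 in the Ip6k1+/+ lines and lacked the flag in both Ip6k1-/- lines, which puts Ip6k1+/+ MEFs at least 34.0-fold higher (limma adjusted p = 0.0356), where the mean of the brighter genotype is divided by the smallest well-above-background signal of the dimmer arrays. Probe A_52_P413035 gave at least 32.7-fold (limma adjusted p = 0.0356). Here and below, a limma p beside such a bound belongs to the fit on the measured values, those without the flag included, and not to the bound. With a floor on dim values 0 probes of the array were called. Probe A_51_P103718 was still well above background in the Ip6k1-/- lines, at -1.98 and -1.23 against 2.46 and 2.61, and differed by -4.13 (standard error 0.33, limma adjusted p = 0.368). No Ip6k1 probe was called with any line left out.

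Of the 11 probes, 6 were well above background in all 4 lines, for Krt7, Krt18, Krt19, Vim and Nes, and 2 in none. Probes entered the test when both lines of at least 1 genotype were well above background, which 7 probes of 6 genes were. None of the 7 was called by limma at an adjusted p of at most 0.05, with adjusted p-values between 0.993 and 0.994, and 0 had an unadjusted p under 0.05. Over all 21573 probes tested, 3 or 0.0139% were called and 3.34% had an unadjusted p under 0.05. By a rule of size, a mean difference of at least 1 on the log2 scale with either Ip6k1-/- line 0.9 or more away from the mean of Ip6k1+/+, both Krt7 probes were lower in Ip6k1-/- MEFs, beside 1.87% of all tested probes, and 0 were higher, beside 1.06%. The same 2 probes were the only ones of the 7 whose genotypes did not overlap, both lower in Ip6k1-/- MEFs, beside 12.6% of tested probes lower and 18.8% higher. The median difference of the 7 probes was -0.44, and that of all tested probes 0.05. The Krt5 probe supplied the median of the 7. Its Ip6k1-/- signals carried no background flag, and its difference shrank to -0.044 with a floor on dim values. With Krt7 counted by 2 probes and a saturated Vim probe among the 7, no shift of the group is drawn from this median.

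**Figure D1:**
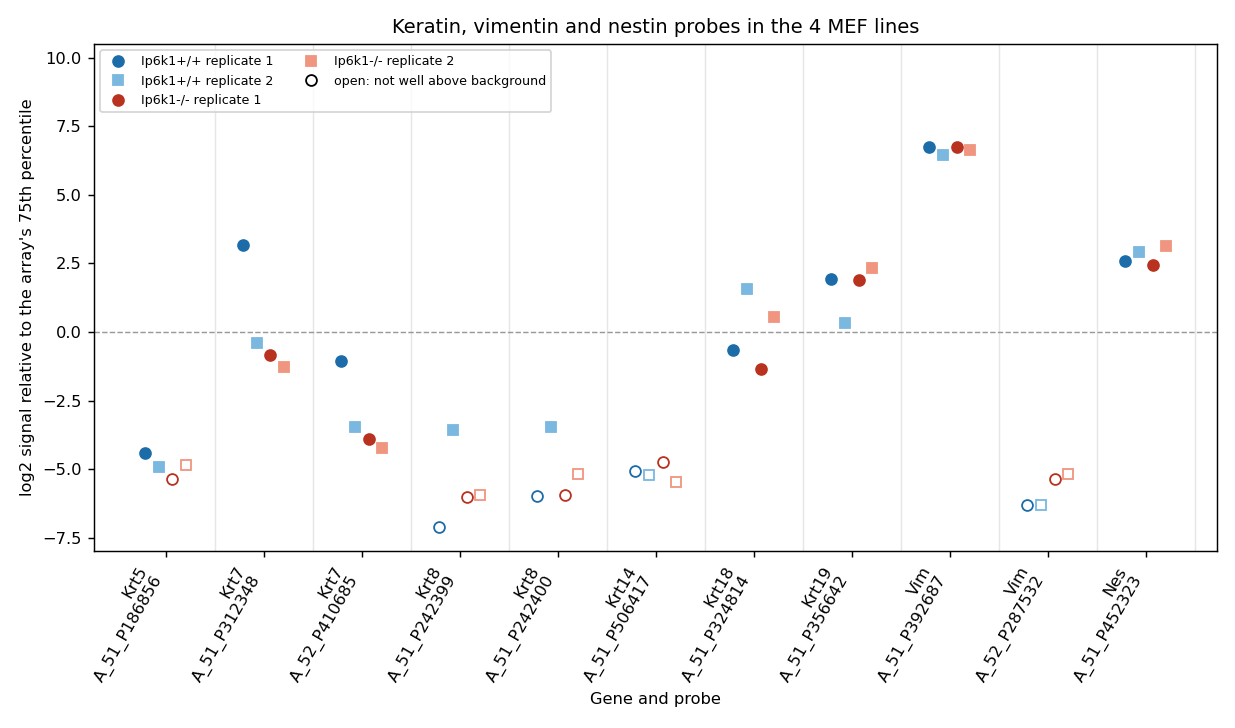
Log2 signal relative to the 75th percentile of the array (y axis) for each of the 11 probes (x axis) in the 4 lines, 1 point per line, with open points where the probe was not well above background. The Vim probe A_51_P392687 is saturated on 3 of 4 arrays, and the Krt7 probes are highest in Ip6k1+/+ replicate 1, at 3.16 and -1.06.

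The type II chains were taken first. Of the 6 keratins chosen, Krt7 had the widest spread over the lines. Probe A_51_P312348 read 3.16 in Ip6k1+/+ replicate 1, -0.39 in Ip6k1+/+ replicate 2, -0.83 in Ip6k1-/- replicate 1 and -1.29 in Ip6k1-/- replicate 2. Ip6k1+/+ replicate 1 stood far above the other 3 lines, 11.7-fold above its own genotype's other line, and the genotypes did not overlap, with Ip6k1-/- MEFs the lower. The mean was 1.39 ± 2.51 (SD, n = 2 lines) in Ip6k1+/+ and -1.06 ± 0.32 (SD, n = 2 lines) in Ip6k1-/- MEFs, which is -2.44 between genotypes (standard error 1.18, limma adjusted p = 0.993). Without Ip6k1+/+ replicate 1 the difference was -0.67, and without Ip6k1+/+ replicate 2 it was -4.22. Without Ip6k1+/+ replicate 1 neither Krt7 probe passed the rule of size. In these bulk samples, fewer cells that carry Krt7 and less Krt7 RNA per cell cannot be told apart.

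The other Krt7 probe, A_52_P410685, put the lines in the same order. It read -1.06 and -3.48 in Ip6k1+/+ replicates 1 and 2, and -3.89 and -4.24 in Ip6k1-/- replicates 1 and 2. Its genotypes did not overlap either, with Ip6k1+/+ replicate 1 at 5.34-fold above Ip6k1+/+ replicate 2. The means of -2.27 ± 1.71 and -4.06 ± 0.25 (SD, n = 2 lines each) differed by -1.80 (standard error 0.85, limma adjusted p = 0.993), by -0.59 without Ip6k1+/+ replicate 1, by -3.01 without Ip6k1+/+ replicate 2, and by -1.01 with normexp background correction. The 3 lower lines were closer together on both probes. Ip6k1+/+ replicate 2 was 1.36-fold and 1.33-fold above Ip6k1-/- replicate 1, and 1.86-fold and 1.70-fold above Ip6k1-/- replicate 2. The Ip6k1-/- lines themselves differed by 1.37-fold and 1.28-fold.

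Krt8, the partner of Krt18, was near background. Probe A_51_P242399 read -3.59 in Ip6k1+/+ replicate 2, the only line in which it was well above background, and -7.10, -6.02 and -5.95 in Ip6k1+/+ replicate 1 and the Ip6k1-/- lines. Probe A_51_P242400 read -3.47 there and -5.97, -5.93 and -5.18 in the same other lines. Ip6k1+/+ replicate 2 was thus at least 3.04-fold and 3.31-fold above Ip6k1+/+ replicate 1 on the respective probes, at least 2.24-fold and 2.44-fold above Ip6k1-/- replicate 1, and at least 2.12-fold and 2.31-fold above Ip6k1-/- replicate 2. Neither probe entered the test, and no genotype difference is given. The mouse genome holds a Krt8 pseudogene by the RefSeq gene table, and whether it adds to these probes was not tested.

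Krt5, the type II chain of basal cells, read -4.41 and -4.93 in the Ip6k1+/+ lines, just above background, and -5.38 and -4.85 in the Ip6k1-/- lines, where it was not well above background. No fold is given, since Ip6k1+/+ replicate 2 lay under the dimmest well-above-background signal of both Ip6k1-/- arrays. The fitted difference of -0.44 had a standard error of 0.41 (limma adjusted p = 0.993), shrank to -0.042 with normexp and -0.044 with a floor on dim values, and ran from -0.71 to -0.18 with a line left out. The lines overlapped, and the values sit at the edge of what the array measures.

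Among the type I chains, Krt14, the partner of Krt5, did not reach the background flag in any line, at -5.06, -5.22, -4.75 and -5.46. Its probe A_51_P506417 spans chr11:100064683-100065288 on the minus strand, a stretch longer than the probe.

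Krt18 split the lines within each genotype rather than between them. It read -0.66 in Ip6k1+/+ replicate 1 and 1.56 in replicate 2, and -1.35 in Ip6k1-/- replicate 1 and 0.55 in replicate 2. The order was therefore Ip6k1+/+ replicate 2, Ip6k1-/- replicate 2, Ip6k1+/+ replicate 1 and Ip6k1-/- replicate 1. The gap was 4.68-fold between the Ip6k1+/+ lines and 3.74-fold between the Ip6k1-/- lines. Between genotypes the means of 0.45 ± 1.57 and -0.40 ± 1.35 (SD, n = 2 lines each) differed by -0.85 (standard error 0.98, limma adjusted p = 0.993), less than the gap within either genotype. The difference turned to 0.26 without Ip6k1+/+ replicate 2 and to 0.10 without Ip6k1-/- replicate 1. Ip6k1+/+ replicate 2, the line highest in Krt18, was also the only line with Krt8 well above background.

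Krt19, a type I chain without the tail domain of other keratins, stood above the 75th percentile of every array. It read 1.92 and 0.31 in Ip6k1+/+ replicates 1 and 2, and 1.89 and 2.35 in Ip6k1-/- replicates 1 and 2. Ip6k1+/+ replicate 2 was the low line, 3.05-fold below Ip6k1+/+ replicate 1, which itself lay 1.02-fold above Ip6k1-/- replicate 1. The genotypes overlapped by this margin. Means of 1.11 ± 1.14 and 2.12 ± 0.32 (SD, n = 2 lines each) differed by 1.01 (standard error 0.58, limma adjusted p = 0.993). Without Ip6k1+/+ replicate 2 this was 0.20, and without Ip6k1+/+ replicate 1 it was 1.81. Krt19 missed the rule of size because Ip6k1-/- replicate 1 lay within 0.9 of the Ip6k1+/+ mean.

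**Figure D2:**
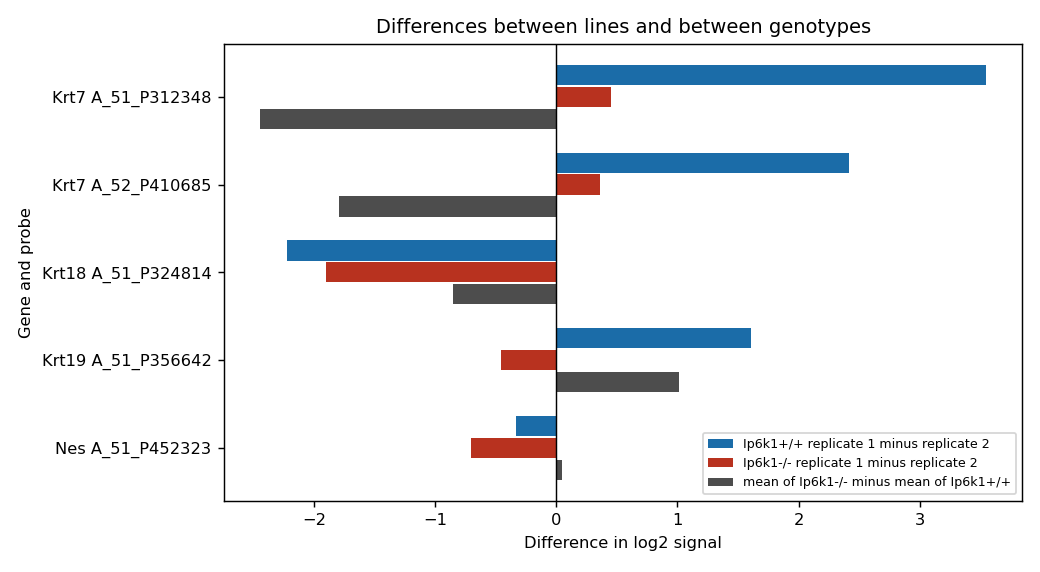
Difference in log2 signal (x axis) for the 5 probes well above background and not saturated in all 4 lines (y axis). Bars give replicate 1 minus replicate 2 within each genotype and the mean of Ip6k1-/- minus the mean of Ip6k1+/+; for all but Nes the bar of the Ip6k1+/+ lines is 1.61 or longer and exceeds the bar between genotypes of the same probe.

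The Ip6k1+/+ lines thus differed from each other by 3.55 and 2.42 on the Krt7 probes, 2.23 on Krt18 and 1.61 on Krt19, in absolute log2 units. These gaps were larger than those of 99.1%, 97.6%, 97.2% and 94.4% of all tested probes, whose median was 0.36. The Ip6k1-/- lines differed by 0.45 and 0.36 on the Krt7 probes, 1.90 on Krt18 and 0.45 on Krt19, larger than 66.2%, 56.1%, 95.6% and 66.2% of tested probes. Each of the Krt7, Krt18 and Krt19 differences between genotypes was smaller than the gap between the Ip6k1+/+ lines of the same probe.

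**Figure D3:**
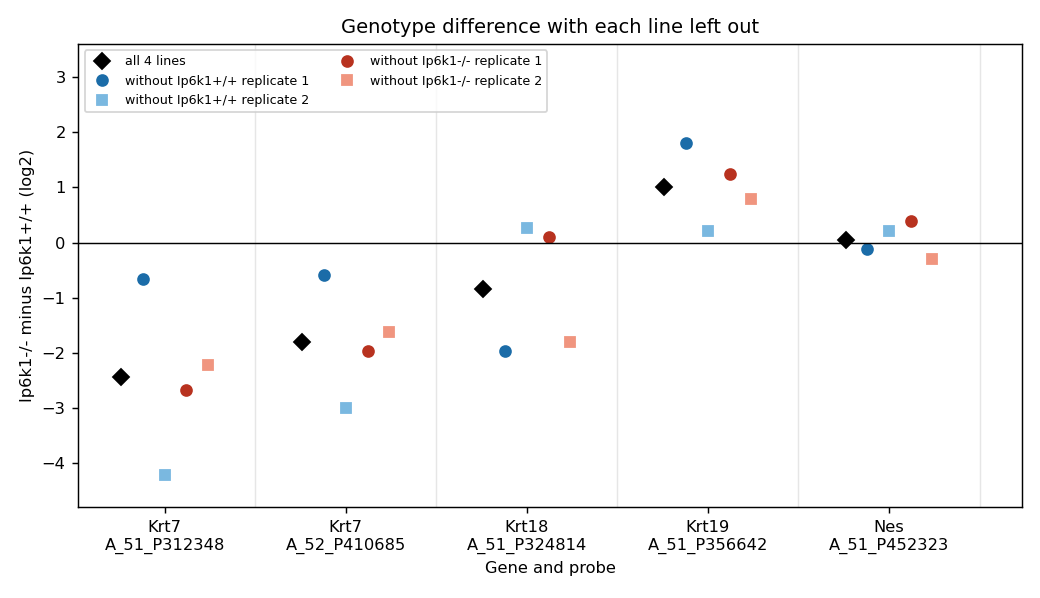
Ip6k1-/- minus Ip6k1+/+ difference in log2 signal (y axis) with all 4 lines (diamonds) and with each line left out in turn, for the same 5 probes (x axis). Krt7 keeps its sign but shrinks from -2.44 to -0.67 without Ip6k1+/+ replicate 1, Krt19 goes from 1.01 to 0.20 without Ip6k1+/+ replicate 2, and Krt18 and Nes cross 0.

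The filament genes of mesenchymal and progenitor cells were bright in every line. The Vim probe A_51_P392687 had signals of 64985, 66155, 64847 and 66628 before scaling, and was saturated in all lines but Ip6k1+/+ replicate 1, where its signal was of the same size without the flag. Since it was saturated on arrays of both genotypes, its scaled levels of 6.73, 6.47, 6.73 and 6.62 follow the 75th percentile of each array, and no fold is given. Vim was thus at the top of the scale in both genotypes, and a difference in its level was not measurable with this probe. The other Vim probe, A_52_P287532, did not reach the background flag in any line, at -6.30, -6.32, -5.36 and -5.17.

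Nes, the filament protein of neural and muscle progenitors, was measured by 10 spots per array, and these agreed to an SD of 0.03 to 0.05 within an array. It read 2.59 and 2.92 in the Ip6k1+/+ lines, against 2.45 and 3.15 in the Ip6k1-/- lines. The Ip6k1-/- lines enclosed the Ip6k1+/+ lines. The means of 2.75 ± 0.24 and 2.80 ± 0.50 (SD, n = 2 lines each) differed by 0.04, with a standard error of 0.31 (limma adjusted p = 0.994). The sign turned to -0.12 without Ip6k1+/+ replicate 1, to -0.31 without Ip6k1-/- replicate 2 and to -0.0043 with quantile normalization. The widest gap, between the Ip6k1-/- lines, was 1.63-fold.

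The other keratins were mostly at background. Those given by their values were chosen after these were seen. Of 44 probes of 38 further keratin genes, 30 were not well above background on any array and 5 entered the test, for Krt10, Krt13, Krt16, Krt17 and Krt33b. None of the 5 was called, passed the rule of size or had genotypes apart, and their median difference was 0.07. Krt10, a chain of differentiating epidermis, was the one above the 75th percentile, at 1.17, 0.56, 0.78 and 1.33 on probe A_51_P111285, while its other probe, A_52_P76277, lay between -5.54 and -5.29 and lacked the background flag in every line. Krt16 and Krt17, chains of stressed and appendage epidermis, differed between genotypes by -0.29 (standard error 1.09) and 0.15 (standard error 0.43). Krt16 again split the lines within genotypes, at -1.14 and -3.38 in Ip6k1+/+ replicates 1 and 2 and -1.38 and -3.72 in Ip6k1-/- replicates 1 and 2.

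Keratins well above background in only some lines came in different sets. Krt15, a basal keratin, was so in Ip6k1+/+ replicate 1 at -3.97 and in Ip6k1-/- replicate 1 at -2.41. Krt20 and Krt23 were so in Ip6k1+/+ replicate 2 alone, Krt23 at -2.29, in the same line as Krt8. Krt75, Krt83 and Krt84 were so in Ip6k1+/+ replicate 1 alone, Krt71 in Ip6k1-/- replicate 1 alone, and Krt35 and Krt222 in Ip6k1-/- replicate 2 alone. Counted by genes, 9 and 7 of the 38 were well above background in the Ip6k1+/+ lines and 7 in each Ip6k1-/- line.

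**Figure D4:**
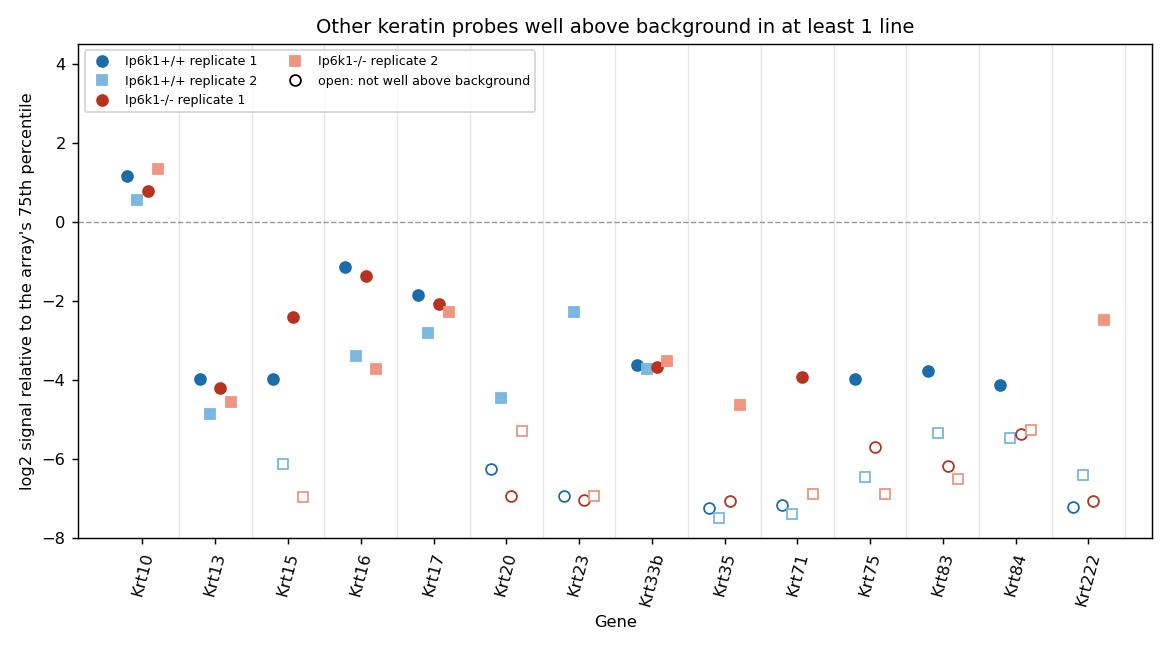
Log2 signal relative to the 75th percentile of the array (y axis) of the 14 further keratin probes well above background in at least 1 line (x axis), 1 point per line, open where not well above background. Krt10 lies above 0 in every line, the others below it, and Krt15 and Krt16 are high in replicate 1 of both genotypes.

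Other genes of the epithelial programme were then counted from a list of 40 markers, of which 39 were on the array. Of their 72 probes, 42 were not well above background on any array and 25 probes of 17 genes entered the test. None was called. By the rule of size 1 was higher and 0 lower, beside 1.06% and 1.87% of all tested probes. Without overlap of the genotypes 3 were higher and 1 lower, beside 18.8% and 12.6% of all tested probes, and the median difference was 0.37 beside 0.05 for all tested probes. Spint1 probe A_51_P341108 supplied this median, with a standard error of 1.05. It read -2.75 and -0.13 in Ip6k1+/+ replicates 1 and 2, so no shift of the group is drawn from the median. Cdh1, the adhesion molecule of epithelial junctions, did not reach the flag in any line. Epcam reached it only in Ip6k1+/+ replicate 2, at -4.93, and Cldn3, a tight junction protein, lay between -4.02 and -3.89 in the 4 lines. The gene that passed the rule of size was Rbm35b, an older name of the epithelial splicing regulator Esrp2, at -3.74 and -4.11 in the Ip6k1+/+ lines, against -2.63 and -2.70 in the Ip6k1-/- lines on probe A_51_P296517 (difference 1.27, standard error 0.33, limma adjusted p = 0.993). Its other probe differed by 0.72 (standard error 0.50), and on it the genotypes overlapped.

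The epithelial markers also varied by line. By genes, 20 and 18 of the 39 were well above background in Ip6k1+/+ replicates 1 and 2, and 19 and 16 in Ip6k1-/- replicates 1 and 2. Their signals, summed over probes in units of the array's 75th percentile, came to 32.9 and 20.5 in the Ip6k1+/+ lines, against 42.0 and 26.1 in the Ip6k1-/- lines, so that the genotypes overlapped. These sums rest on few probes. The brightest, A_52_P334188 of Sfn (stratifin), made up 38.3% to 67.9% of them, at 4.03, 3.62, 4.01 and 4.15, followed in the replicate 1 lines by Perp, a desmosomal membrane protein, at 2.56, -1.26, 3.17 and -0.14. The other Sfn probes were far lower and split the lines. A_51_P213940 read -0.91, -2.95, -1.09 and -3.15, and A_52_P334191 read -1.15, -3.07, -1.37 and -3.17, so the level of Sfn is not settled by its brightest probe. Of the 24 epithelial probes well above background in all 4 lines, 12 were higher in replicate 1 of both genotypes, 1 was higher in replicate 2 of both, and 11 went opposite ways in the genotypes. The 1 higher in replicate 2 of both was Cdh3 (P-cadherin), at -1.86, 0.38, -2.02 and 0.82. Trp63, the basal transcription factor, on probe A_51_P216550, and Lamb3, a basement membrane laminin chain, were well above background in the replicate 1 lines alone. The other Trp63 probes, A_52_P17264 and A_52_P360130, lacked the flag in every line. These 5 genes were chosen after their values were seen. In the replicate 1 lines Krt15 and Krt16 were higher and Krt18 lower, and the part of other cell types in these values was not tested.

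**Figure D5:**
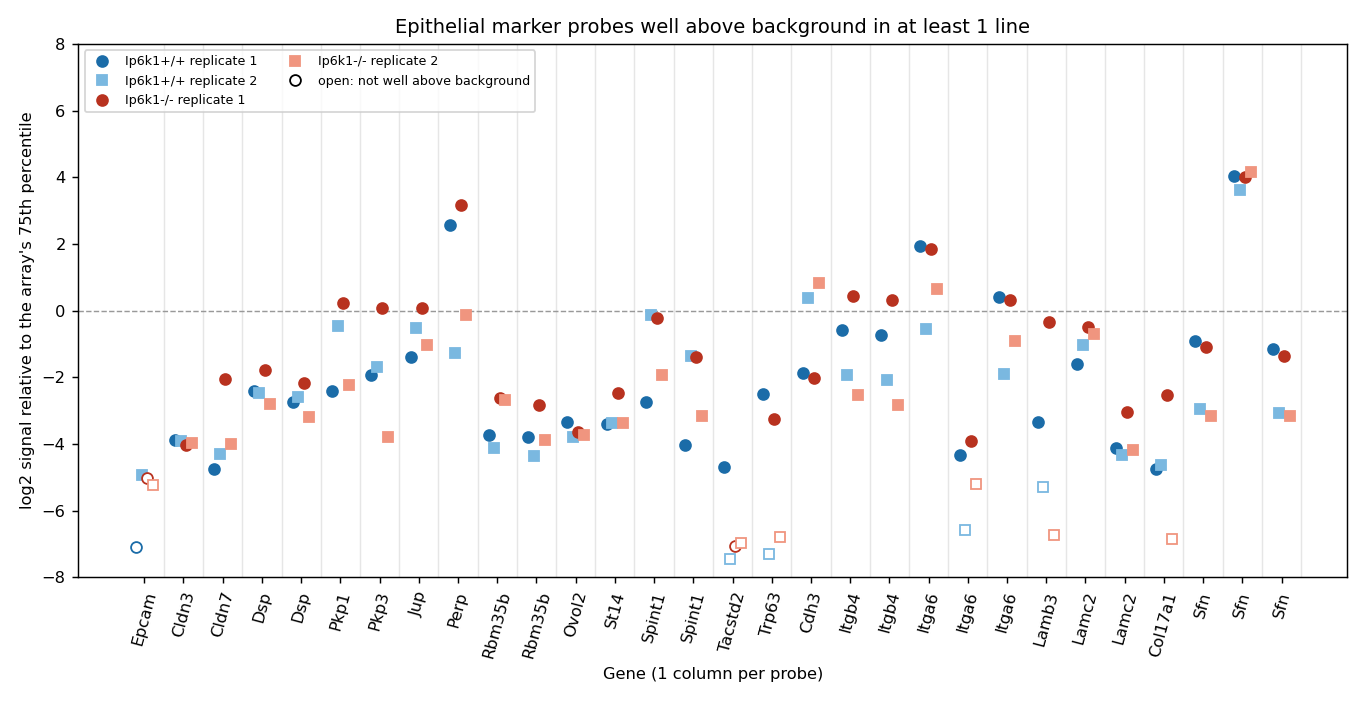
Log2 signal relative to the 75th percentile of the array (y axis) of the epithelial marker probes well above background in at least 1 line (x axis, 1 column per probe), 1 point per line, open where not well above background. Most lie below 0, Cdh1 has no probe here, and Trp63 and Lamb3 are well above background in the replicate 1 lines alone.

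The labelled cell type was checked by fibroblast and mesenchymal markers, of which 25 of 25 genes were well above background in both Ip6k1+/+ lines and in Ip6k1-/- replicate 1, and 23 in Ip6k1-/- replicate 2. Of their 43 tested probes none was called. By the rule of size 0 were higher and 2 lower, beside 1.06% and 1.87% of all tested probes. Without overlap 0 were higher and 14 lower, beside 18.8% and 12.6% of all tested probes, and the median difference was -0.29 beside 0.05. Col3a1, Fn1 and Sparc were each counted by more than 1 probe among the 14, and the 43 held saturated probes. No shift of the group is therefore drawn from these numbers. Col1a1 and Col1a2, the chains of type I collagen, each had a probe saturated on all 4 arrays. Col3a1, a chain of type III collagen, read 6.24, 5.90, 5.46 and 4.17 on A_51_P515605. Other markers split the lines. Thy1 read 1.41, 6.02, 3.98 and 5.52 on A_52_P479249 and -4.01, 1.48, -1.45 and 0.72 on A_51_P420731. It was lowest in Ip6k1+/+ replicate 1, the line highest in Krt7. Pdgfra went the other way, at 0.20, -2.19, -1.08 and -2.33 on A_51_P345649. Thy1 and Pdgfra were chosen after their values were seen, and a link to Krt7 was not tested. The 2 lower by the rule of size were Pdgfrb, a growth factor receptor of mesenchymal cells, at -1.20 between genotypes (standard error 0.18, limma adjusted p = 0.798), and Dcn, the matrix proteoglycan decorin, with -2.40 (standard error 0.82, limma adjusted p = 0.993).

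Mesothelium, the lining of body cavities, holds keratins of simple epithelia together with vimentin, so its markers were counted too. Of 13 genes, 5, 4, 5 and 5 were well above background in Ip6k1+/+ replicates 1 and 2 and Ip6k1-/- replicates 1 and 2. Msln (mesothelin) was well above background in every line, at 0.87, 0.17, 1.03 and -0.63, while Upk3b and Upk1b were so in none. Of the 6 tested probes 0 were called, and by the rule of size 0 were higher and 1 was lower, beside 1.06% and 1.87% of all tested probes. The lower was A_52_P472324 of the protease inhibitor Slpi, at -0.22 and -4.13 in the Ip6k1+/+ lines, against -4.16 and -6.95 in the Ip6k1-/- lines (difference -3.38, standard error 1.59, limma adjusted p = 0.993). Its Ip6k1-/- replicate 2 value was not well above background, so the size of this difference is not measured on that side, and the other Slpi probe lacked the flag in every line. A_52_P472324 was highest in Ip6k1+/+ replicate 1, and the rule of size by which it was named lets only an Ip6k1+/+ line be the highest.

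Of the proteins that bind or share filaments with these genes, 15 plakin and keratin-binding probes were tested and 0 called, with 1 higher and 0 lower by the rule of size, beside 1.06% and 1.87% of all tested probes. Without overlap 4 were higher and 0 lower, beside 18.8% and 12.6%, and the median difference was 0.16. The linkers plectin (Plec1) and Dst tie keratin and vimentin filaments to junctions and to other parts of the cytoskeleton. The 4 Plec1 probes tested differed by -0.23 to 0.62. The 1 higher was Dst probe A_52_P552955, at -5.14 and -5.60 in the Ip6k1+/+ lines, where it was not well above background, and at -3.95 and -3.12 in the Ip6k1-/- lines, which were at least 3.08-fold higher (limma adjusted p = 0.993). The other 3 Dst probes tested differed by 0.10 to 0.20. Macf1, the spectraplakin that joins actin and microtubules, differed by -0.02 (standard error 0.22).

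Other intermediate filament genes gave 10 tested probes, 0 called and 0 past the rule of size, beside 1.06% of all tested probes higher and 1.87% lower. Without overlap 2 were higher and 0 lower, beside 18.8% and 12.6%, and the median difference was 0.06. This median lies between the values of Lmna probes A_52_P137765 and A_51_P313561, 0.062 and 0.064. Every tested Lmna probe was saturated on at least 1 array, so their differences are not measured. Des (desmin) and Gfap, the type III chains of muscle and glia, were not well above background in any line, and Prph was well above background in Ip6k1-/- replicate 1 alone. Synm (synemin), a partner of vimentin and desmin, read 1.20, -3.21, 1.64 and -3.66 on probe A_51_P404875, and Sync (syncoilin) read 0.02, -3.30, -0.93 and -4.37 on A_52_P562467. Both were chosen after their values were seen, and both were high in replicate 1 and low in replicate 2 of each genotype, the reverse of Krt18.

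The probes whose values over the 4 lines, each centred on its mean, lay closest to those of a keratin were sought among 18300 probes well above background and unsaturated on all arrays. With so few lines this is a description of shape. The distance is the root mean square of the 4 deviations in log2 units. For Krt7 the closest names were Kazald1 (0.21), Lrrn3 (0.25) and Slc1a6 (0.30) on A_51_P312348, and Ppap2a (0.12), Dclk1 (0.14) and Adamtsl4 (0.25) on A_52_P410685. Kazald1 read 2.43 in Ip6k1+/+ replicate 1 and -1.63, -1.56 and -2.29 in the other lines. For Krt18 they were H2-M3 (0.13), Hspa12b (0.13) and Lrrn4cl (0.16), and H2-M3 read -1.02, 1.06, -1.64 and -0.07. For Krt19 they were Cd59a (0.05), Cd24a (0.08) and Dnajb3 (0.13). Cd24a read 2.95 and 1.54 in the Ip6k1+/+ lines, against 3.10 and 3.59 in the Ip6k1-/- lines, with Ip6k1+/+ replicate 2 again the low line.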

How the data were processed

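Total RNA of 4 MEF lines was labelled with Cy3 and hybridised to single-colour Agilent arrays on 1 slide. Per the file headers, the intensity of every spot was extracted with Feature Extraction 10.5.1.1, as a linear signal corrected for background, and the authors also deposited log2 values shifted to the 75th percentile in GeneSpring, used here only as an alternative. Levels are log2 of the processed intensity less each array's 75th percentile over all spots other than controls. Spots flagged as outliers were left out (96 to 133 per array), saturated spots were kept, and spots of 1 probe were averaged. Gene names are those of the files. The genotype difference was fitted by limma 3.58.1 in R 4.3.3 (lmFit, then eBayes with trend) with Benjamini-Hochberg adjustment over 21573 probes, after tests on simulated data. The number of arrays limits the precision. Genes named are the 8 filament genes, Ip6k1, and of each list those called, those past the rule of size and its first 3 markers. Others were chosen after their values were seen. For a keratin probe spanning at least 2 on the log2 scale, the 3 closest gene names are given. The genes and lists were chosen with earlier results of these data known. The alternatives tried were normexp (offset 50, spots under their local background left out), quantile and median normalization, other filters, a floor, the deposited values, each line left out, a replicate block and other tests.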

Additional observations from a re-analysis of the deposited data

How the results depend on the processing

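No probe of the 8 genes, no other keratin probe and no listed probe was called under any alternative run. Over all probes, the 3 calls fell to 0 with normexp background correction, with quantile normalization, with a floor on dim values, with the methods' t-test and with any line left out, and to 1 with no filter on dim probes and with probes well above background on all 4 arrays, and the cause was not tested. With a line left out, between 2 and 4 probes of the 8 genes passed the rule of size against 2. Of all tested probes, 4.95% passed it without Ip6k1+/+ replicate 1 and 9.12% without Ip6k1+/+ replicate 2. The share was 11.95% without Ip6k1-/- replicate 1 and 9.98% without Ip6k1-/- replicate 2, against 2.93% with all lines. The 4 probes of the 8 genes, without Ip6k1+/+ replicate 1, were Krt18, Krt19 and both Krt8 probes. The Krt7 probes were not among these 4, while both passed with any other line left out. Between 4 and 7 probes had genotypes that did not overlap against 2, as did 58.3% to 73.1% of all tested probes against 31.5%, and without Ip6k1+/+ replicate 1 the Krt8 probes also entered, which made 9 probes tested against 7. With a line left out, Krt18 differed by -1.96 to 0.26, and Nes by -0.31 to 0.39, and Nes by -0.0043 with quantile normalization. The scaled Vim values, -0.061 to 0.20, are those of a saturated probe and do not measure Vim. Both Krt7 probes and Krt19 kept their sign under every alternative, with limma adjusted p-values from 0.354 to 1.00 for Krt7 and from 0.456 to 1.00 for Krt19. By the rule of size, all probes gave 229 higher and 404 lower, 54 and 190 with normexp, 404 and 949 with no filter, 122 and 241 with probes well above background on all 4 arrays, 397 and 887 by the mean alone, and 271 to 1324 and 865 to 1340 with a line left out. With the replicate number as a block, 3 probes were called, and 1765 probes, 3 of them of the 8 genes, had an unadjusted p under 0.05, against 721 and 0. The labels do not say that the numbers pair the lines, and replicate 1 minus replicate 2 correlated with r = 0.479 between genotypes over 21573 probes, which are not independent. A line left alone in its genotype is assumed to vary like the others. Levels near background and the saturated Vim probe limit what these arrays measure.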

Other observations

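Markers of further cell types were counted in the same way, and none of their tested probes was called. Of the myogenic markers 5 probes were tested, and Myod1, Myf5 and Myf6, the factors that specify muscle, lacked the flag in every line. By the rule of size 0 myogenic probes were higher and 1 lower, beside 1.06% and 1.87% of all tested probes. Without overlap 0 were higher and 3 lower, beside 18.8% and 12.6%. The 1 lower by the rule of size was Cdh15, the cadherin of myoblasts, at -3.58 and -4.48 in the Ip6k1+/+ lines. It read -5.21 and -5.51 in the Ip6k1-/- lines, where it lacked the background flag, at least 1.61-fold higher in Ip6k1+/+ (limma adjusted p = 0.993). Among neural and glial markers, with 3 tested, Sox1 lacked the flag in every line, and Pax6 carried it in Ip6k1+/+ replicate 2 alone, on probe A_51_P489935. By the rule of size 0 neural and glial probes were higher and 1 lower, beside 1.06% and 1.87% of all tested probes. Without overlap 0 were higher and 1 lower, beside 18.8% and 12.6%. The 1 lower by the rule of size was Sox2, a factor of neural and other progenitors. It read -2.06 and -4.69 against -5.37 and -6.85, the last 2 not well above background, at least 2.53-fold higher in Ip6k1+/+ (limma adjusted p = 0.993). In Cdh15 and Sox2 Ip6k1+/+ replicate 1 was the highest line. Both were named because the rule of size put them lower in Ip6k1-/- MEFs, so the highest line had to be of Ip6k1+/+, and no likeness to Krt7 is drawn from this.

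Of the endothelial markers Pecam1 and Cdh5 lacked the flag in every line, and Kdr, a receptor of vascular growth factor, was the only one tested, at -3.66 and -3.99 in the Ip6k1+/+ lines, against -2.94 and -1.59 in the Ip6k1-/- lines (difference 1.56, standard error 0.54, limma adjusted p = 0.993). Kdr did not pass the rule of size. Its genotypes did not overlap, with Ip6k1-/- MEFs the higher, beside 18.8% of all tested probes. Of the haematopoietic markers 3 were tested, and 0 passed the rule of size. Without overlap 2 were higher and 1 lower, beside 18.8% and 12.6% of all tested probes. Ptprc, the pan-leukocyte antigen, lacked the flag in every line, and Cd68, a lysosomal protein of macrophages that fibroblasts can also contain, lay between -3.07 and -1.82 in all 4. Adgre1, a macrophage receptor, lacked the flag in every line.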
